A study of Danio rerio with 13 samples.

Results

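Skin of zebrafish fell into 2 states by the level of genes that interferons induce, and the 7 interferon-high samples were set against the 6 interferon-low samples, 13 in all. Membership was selected on measured values of interferon genes in these same samples, with rsad2 as the marker, so every difference between the states is given as a description and carries no test. The samples were skin of male fish of the AB strain at 3 months of age, and each was homozygous mutant (HOM, tert-/-), heterozygous (HET, tert+/-) or wild type (WT, tert+/+) for tert, the gene of the telomerase catalytic subunit. The mutant fish belonged to the hu3430 line, whose allele carries a premature stop codon. The interferon-high samples were HOM1, HOM2, HET3, HET4, WT2, WT3 and WT4. The interferon-low samples were HOM3, HET1, HET2, HET5, WT1 and WT5. No infection or treatment is given in the labels for either state. The paper counts 5 wild-type, 5 heterozygous and 3 homozygous mutant animals, which matches the samples of each genotype here. The labels do not tie a sample to a named fish, and the spread between samples may be partly technical.

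Interferons are secreted when a cell senses viral nucleic acid or certain other stimuli. Binding to receptors activates JAK kinases, which phosphorylate STAT proteins, and STAT and IRF transcription factors then switch on a large set of antiviral genes, their own genes among them. Fish have antiviral interferons called interferon phi, an interferon gamma system, and large fish-specific families of induced genes, among them the finTRIM and gig2 genes.

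The antiviral gene rsad2 (viperin), whose product makes a chain-terminating nucleotide that blocks viral RNA synthesis, marked the split. Its level, as read counts scaled to library size (CPM), was 97.5 to 313 in interferon-high samples (median 130) and 0.741 to 3.2 in interferon-low samples (median 1.90). The members nearest the boundary were HET3 at 97.5 CPM on the high side and WT1 at 3.2 CPM on the low side, and no sample lay between them. Within the interferon-high samples the level was 313 CPM in HET4, 250 in WT4, 174 in HOM1, 130 in WT3, 115 in HOM2, 98.8 in WT2 and 97.5 in HET3. The log2 difference of high minus low, adjusted for genotype, was 6.56 ± 0.51 (SE).

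Each genotype held both states. Of the HOM samples 2 of 3 were interferon-high, of the HET samples 2 of 5, and of the WT samples 3 of 5 (Fisher-Freeman-Halton exact test, two-sided, p = 1). The sample titles carry running numbers, and those of the 7 interferon-high samples lie together. Of the interferon-low samples, 3 have lower and 3 have higher numbers, and 0 lie between the high ones. What these numbers stand for is not given, and the state and whatever the numbers record cannot be told apart.

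Sequencing depth and most tissue markers overlapped between the states. Total counts were 17782298 to 30249877 in interferon-high and 15709310 to 28811050 in interferon-low samples, and mitochondrial genes took 19.9% to 54.3% of them in interferon-high and 25.4% to 56.4% in interferon-low samples. Keratinocyte genes were present throughout, with krt5 at 7280 to 20500 CPM in interferon-high and 4010 to 12900 CPM in interferon-low samples, and epcam at 177 to 385 CPM in interferon-high and 77.4 to 337 CPM in interferon-low samples. For tp63 the ranges were 108 to 507 CPM in interferon-high and 82.8 to 322 CPM in interferon-low samples. By contrast, krt4 leaned lower, at 538 to 1080 CPM in interferon-high and 987 to 3540 CPM in interferon-low samples. Its log2 difference was -1.20 ± 0.31, with overlap and not past the line used below for listing genes. Muscle RNA was also present in every sample (ckma 309 to 5190 CPM in interferon-high, 878 to 6510 CPM in interferon-low). Liver transcripts were not balanced. The summed level of 31 genes of secreted liver proteins was 692 to 2008 CPM in interferon-high samples and 938 to 51130 CPM in interferon-low samples, where WT5 and WT1 held most, and 938 to 1661 CPM in the other low samples. In bulk samples, fewer cells of a type and less RNA per cell cannot be told apart.

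Across 19141 genes, an edgeR fit of state and genotype put 386 (2.02%) past an adjusted p of 0.05, which serves here only as a line for listing genes. Of these, 350 (1.83%) were higher and 36 (0.188%) were lower in interferon-high samples. The median log2 difference was 2.2 among the higher genes, -1.49 among the lower genes and -0.05 over all genes. The states did not overlap at all for 298 of the 350 higher and 17 of the 36 lower genes. Over all genes tested, 364 (1.9%) had every interferon-high sample above every interferon-low sample and 59 (0.308%) the reverse. All 350 and all 36 had the same direction within HOM, within HET and within WT, with medians for the higher genes of 1.79 in HOM, 1.90 in HET and 1.86 in WT on the log2(CPM + 0.5) scale. These genes were picked by their difference in the same samples, so a shared direction is largely built in and is no independent support. HOM held only 1 interferon-low sample. Genes in the lists of the interferon system made up 113 of the 350 higher genes. These lists hold 299 genes, not all of which had enough reads to be tested. A further 214 of the higher genes were in no list, as were most genes tested. Of the 36 lower genes, 0 were in the interferon lists. Those lists hold only a small part of the 19141 genes tested, so 0 among 36 genes cannot show that they were depleted. Under DESeq2 the same 386 genes were past the line among 1089, of which 643 were higher and 446 lower, so the balance of directions differed between the tools. In edgeR, leaving out HOM3 left 240 genes past the line. Without HET4, 244 of the 386 stayed past it, without WT1 and WT5 221 did, and with the liver list mean in the fit 183 did.

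**Figure D1:**
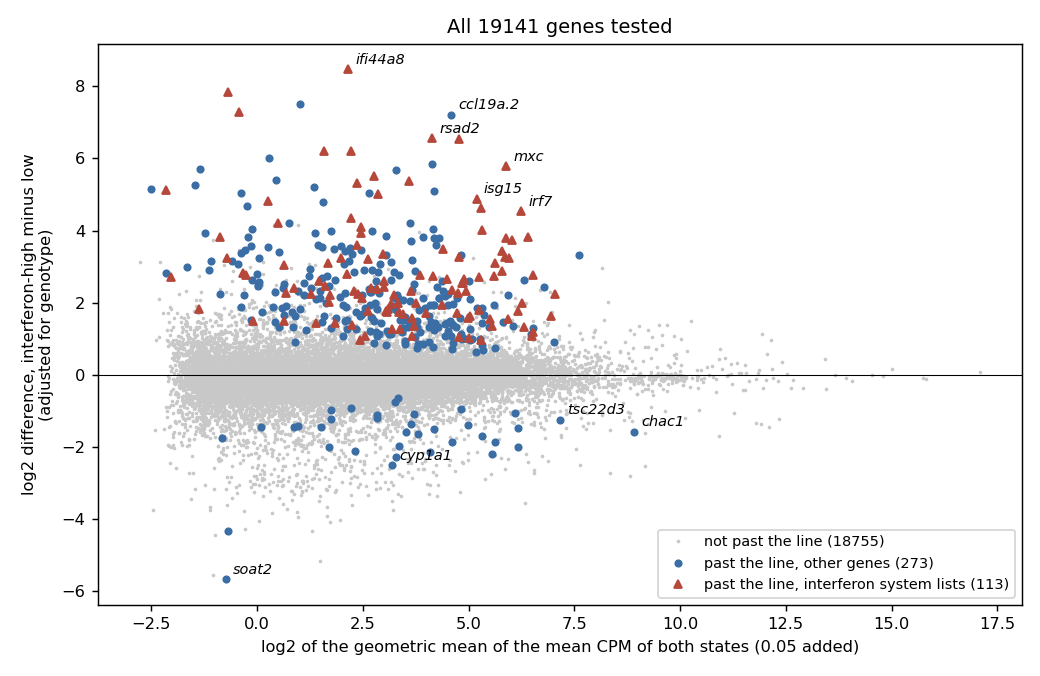
Log2 difference of interferon-high minus interferon-low skin, adjusted for genotype, against the log2 mean level (CPM) for 19141 genes. Red triangles are the 113 genes past the line in the lists of the interferon system, which all lie above 0. Blue points are the other genes past the line, and grey points the 18755 genes not past it.

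The interferons themselves were scarce. Of 6 interferon genes in the table, 3 had enough reads to be tested, and 2 of them were past the line. Transcripts of ifnphi1, the main antiviral interferon induced early in zebrafish infection, were at 1.48 to 2.94 CPM in interferon-high samples (median 2.38) and at 0.497 to 1.34 CPM in interferon-low samples (median 1.0), a log2 difference of 1.5 ± 0.26. The states did not overlap, although the gap was narrow. For ifng1r, an interferon gamma of fish, the 7 interferon-high samples together held 115 reads and the 6 interferon-low samples 3 reads, with 4 of the low samples at 0. The high samples spanned 2 to 57 reads, so the level rests on few molecules. No low sample held more than 2 reads, so ifng1r was tested because of its high samples. The share of 2 in 3 is thus partly set by the state itself. With a filter of 1 CPM in 3 samples, ifng1r was not among the genes past the line. The level of ifnphi2 was 0.0581 to 0.619 CPM in interferon-high and 0.111 to 0.536 CPM in interferon-low samples, which overlapped.

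Of 7 receptor chains, 0 were past the line in edgeR, and 6 had a log2 difference above 0 (median 0.88). The interferon phi receptor chains crfb1 and crfb2 were at 6.88 to 14.2 and 4.65 to 9.06 CPM in interferon-high samples, against 4.22 to 9.08 and 1.73 to 5.59 CPM in interferon-low samples. The interferon gamma receptor genes ifngr1 and ifngr1l were at 2.92 to 15.8 and 5.40 to 21.8 CPM in interferon-high samples, against 1.15 to 3.99 and 2.93 to 7.62 CPM in interferon-low samples. All of these overlapped between the states. DESeq2 put 2 of the 7 receptor genes past the same line, both higher. The chains il10rb and crfb4 had log2 differences of 0.50 ± 0.20 and 0.55 ± 0.27. Only crfb12 lay below 0, at -2.05 ± 0.82, with 0.841 to 18.2 CPM in interferon-high and 5.11 to 55.4 CPM in interferon-low samples.

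Sensors of foreign nucleic acid were past the line in 7 of 17 genes tested, all higher, with a list median of 0.87. The DNA sensor cgas was at 18.4 to 62.7 CPM in interferon-high samples (median 42.9), against 0.555 to 3.10 CPM in interferon-low samples (median 0.795). The RNA helicase dhx58 (LGP2), which tunes RIG-I-like sensing, was at 117 to 287 CPM in interferon-high and 3.41 to 14.0 CPM in interferon-low samples. The fish-specific kinase pkz, which binds Z-form nucleic acid and halts translation, was at 49.4 to 94.5 CPM in interferon-high and 3.22 to 9.73 CPM in interferon-low samples. None of these overlapped, and their log2 differences were 5.00 ± 0.54 for cgas, 4.62 ± 0.45 for dhx58 and 3.48 ± 0.32 for pkz. The related kinase eif2ak2 (PKR) had a difference of 2.25 ± 0.38, and sting1, the adaptor that carries the cgas signal, 2.31 ± 0.53. For sting1 the interferon-high range of 12.4 to 60.1 CPM lay close to the interferon-low range of 1.44 to 11.6 CPM, and it was past the line in 13 of the 27 fits tried. The level of ifih1 (MDA5), named after its values were seen, differed by less, at 13.2 to 21.1 CPM in interferon-high and 5.15 to 12.8 CPM in interferon-low samples. The adaptor mavs and the receptor tlr3 were not past the line, with log2 differences of 0.45 ± 0.14 and 0.87 ± 0.28.

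The transcription factors that carry the interferon signal were past the line in 9 of 17 genes of the JAK, STAT and IRF list (median 1.62), all higher. The gene irf7, which amplifies interferon production, was at 240 to 507 CPM in interferon-high samples (median 344) and 6.41 to 33.5 CPM in interferon-low samples (median 10.9). The states did not overlap, the highest low sample was HET2, and the log2 difference was 4.54 ± 0.46. The genes stat2 and irf9, whose products act in a complex on interferon response elements, had differences of 1.77 ± 0.26 and 1.70 ± 0.22 without overlap. Named by the rule, irf10 (2.77 ± 0.28), irf1b (2.77 ± 0.36) and irf8 (2.42 ± 0.29), the last a factor of macrophage development, were higher too. The kinases upstream were not past the line, with jak1 at 0.52 ± 0.19 and tyk2 at 1.11 ± 0.40.

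**Figure D2:**
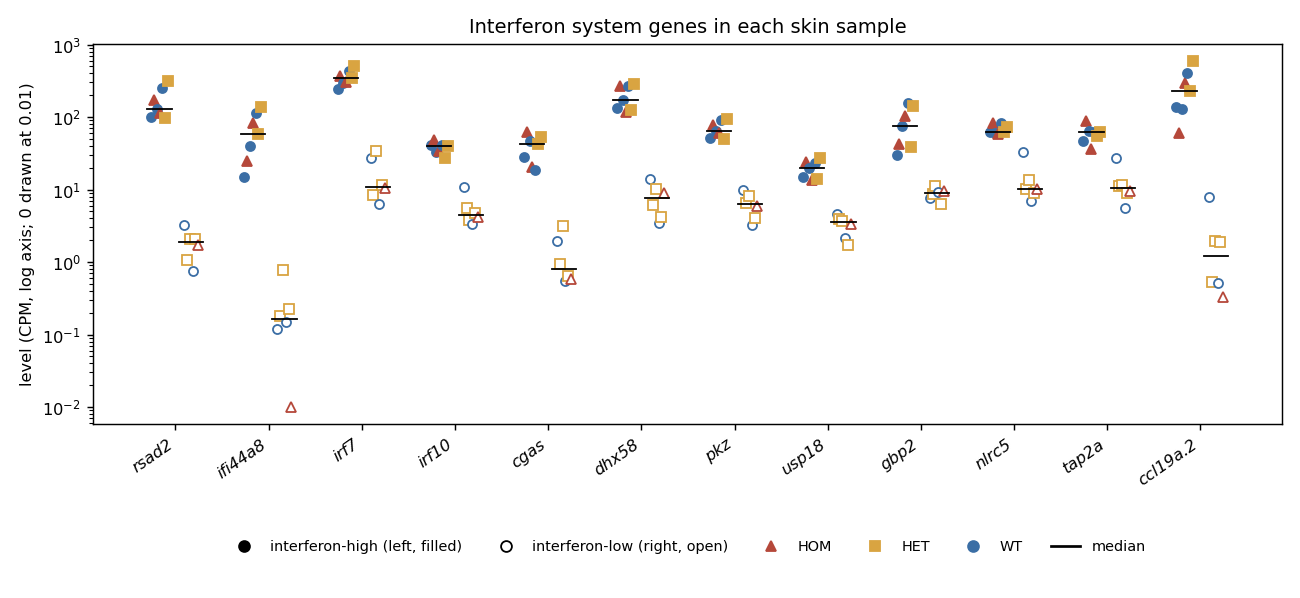
Level of 12 genes in each sample as CPM on a log axis, interferon-high on the left of each gene (filled) and interferon-low on the right (open), with a bar at the median. Shape and colour give the genotype. In each gene shown every interferon-high sample lies above every interferon-low sample, and HOM, HET and WT samples mix within a state.

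Feedback inhibitors were higher as well, in 3 of 11 negative regulators (median 0.45). The kinase inhibitor socs1 was at 65.3 to 179 CPM in interferon-high and 8.38 to 27.7 CPM in interferon-low samples, and its paralogue socs1b at 2.17 to 9.12 CPM in interferon-high and 0.037 to 0.729 CPM in interferon-low samples. The ISG15 protease usp18, which also blocks the interferon receptor in mammals, was at 13.6 to 27.4 CPM in interferon-high and 1.73 to 4.62 CPM in interferon-low samples. The states did not overlap for any of the 3, and the differences were 2.74 ± 0.32 for socs1, 4.20 ± 0.60 for socs1b and 2.59 ± 0.29 for usp18. The other 8 members, among them socs3 and the pias genes, were not past the line.

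Antiviral effectors held the most genes past the line of any list, 53 of 73, all higher (median 2.41), and 50 with no overlap between the states. The widest fitted difference of any gene was that of ifi44a8, a member of the interferon-induced ifi44 family. It was at 15 to 138 CPM in interferon-high samples (median 59.3) and 0 to 0.789 CPM in interferon-low samples (median 0.163), a log2 difference of 8.47 ± 0.76 that rests on 30 reads over the low samples. The tetratricopeptide gene ifit15, of a family that binds viral RNA, had 898 reads over the interferon-high samples and 3 over the interferon-low samples. For ifi44a7 the totals were 1028 reads in interferon-high and 5 reads in interferon-low samples. A fitted difference for these 2 genes depends on the prior count and is not given. The gene gig2l, of a family induced by virus in fish, was far more variable than these, at 9.80 to 608 CPM in interferon-high and 0.188 to 16.0 CPM in interferon-low samples. Its lowest high sample, HOM2, lay below its highest low sample, HET2.

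Several well-known effectors outside the rule were looked up after the values had been seen. The ubiquitin-like modifier isg15 was at 124 to 245 CPM in interferon-high samples and 3.70 to 12.6 CPM in interferon-low samples, and its activating enzyme uba7 at 28.0 to 75.2 CPM in interferon-high and 2.93 to 12.7 CPM in interferon-low samples. The dynamin-like GTPase mxc, which traps viral nucleocapsids in mammals, was at 61.7 to 833 CPM in interferon-high and 3.81 to 28.5 CPM in interferon-low samples. The nucleotide kinase cmpk2, often induced together with rsad2, was at 11.2 to 32.1 CPM in interferon-high and 0.45 to 1.49 CPM in interferon-low samples. The states did not overlap in any of these. Log2 differences were 4.88 ± 0.38 for isg15, 2.74 ± 0.37 for uba7, 5.79 ± 0.85 for mxc and 4.35 ± 0.40 for cmpk2. Not every family member was past the line. Those past it were 5 of 7 mx genes, 6 of 10 ifit genes, 9 of 13 ifi44 genes, 5 of 8 ifi27 genes and 8 of 9 gig2 genes, and the mx genes ran from -0.95 to 5.79. Families of this kind can hold closely related copies, and how far reads were shared between copies was not measured, so the level of any single copy is uncertain.

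**Figure D3:**
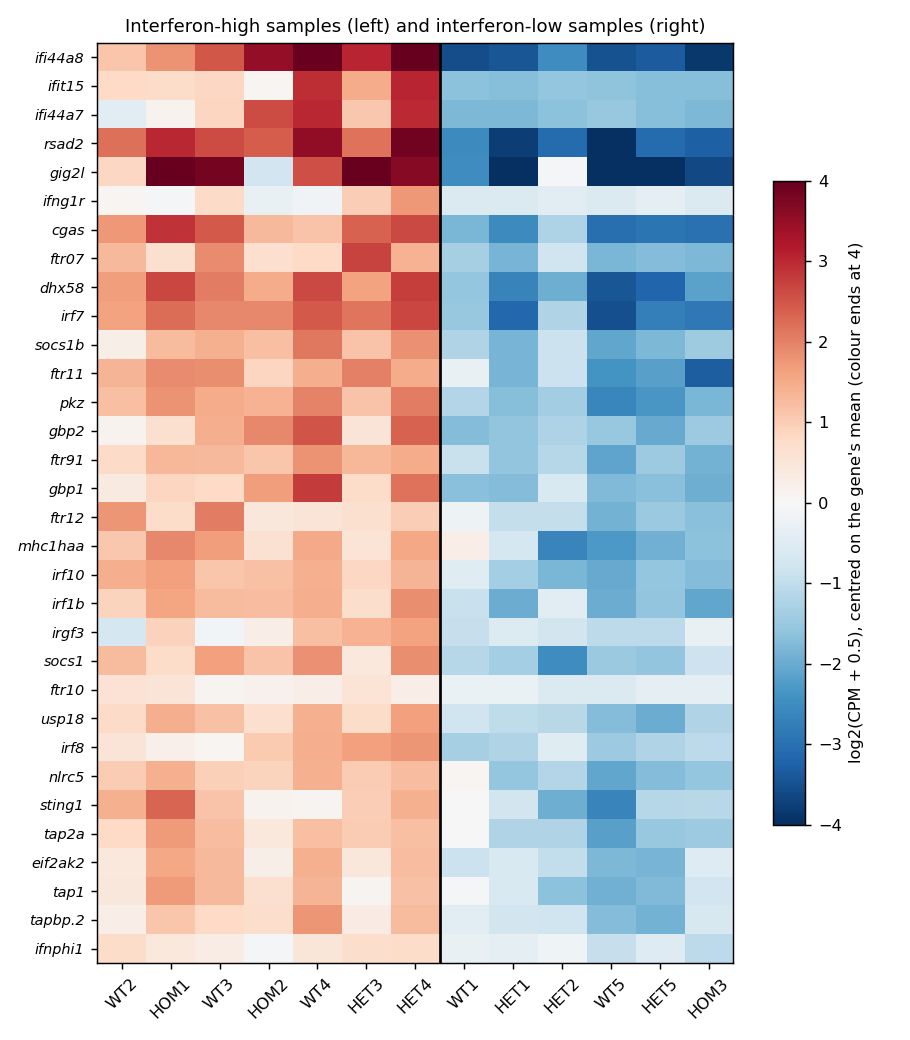
Levels by sample of 32 genes of the interferon lists that the naming rule gave and that were past the line, as log2(CPM + 0.5) centred on each gene's mean, with 7 interferon-high samples left of the black line and 6 interferon-low samples right of it. Red is above and blue below the gene's mean. Among the low samples WT5 holds many of the darkest cells, and gig2l is pale in HOM2 among the high samples.

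In class I presentation, 11 of 32 genes were past the line, all higher (median 1.11), whereas of 15 class II genes 0 were (median -0.03). The regulator of class I genes nlrc5 was at 57.5 to 83.3 CPM in interferon-high samples and 6.89 to 32.6 CPM in interferon-low samples. Of the peptide transporter, tap2a was at 36.2 to 88.3 CPM in interferon-high and 5.52 to 27.1 CPM in interferon-low samples, and tap1 at 14.2 to 44.0 CPM in interferon-high and 3.15 to 12.8 CPM in interferon-low samples. In all 3 the highest low sample was WT1. The log2 differences were 2.33 ± 0.34 for nlrc5, 2.26 ± 0.36 for tap2a and 1.99 ± 0.39 for tap1, with 1.98 ± 0.36 for the loading chaperone tapbp.2 and 2.79 ± 0.62 for the class I chain mhc1haa, which was past the line in 13 of the 27 fits tried. DESeq2 listed 16 class I genes, all higher, and of the class II genes 1 higher and 1 lower. The difference between the classes was not tested, and the summed class I level overlapped between the states, at 1943 to 3278 CPM in interferon-high and 630.7 to 2586 CPM in interferon-low samples. The light chain b2m was not past the line (1.05 ± 0.40), nor were the class II invariant chains cd74a (-0.36 ± 0.47) and cd74b (-0.01 ± 0.50). Class I chains are polymorphic and differ between fish, which can move reads among their genes.

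Guanylate-binding and immunity-related GTPases, which interferon gamma induces against intracellular microbes in mammals, were past the line in 3 of 10 genes (median 0.86). The level of gbp2 was 29.7 to 156 CPM in interferon-high and 6.23 to 11.2 CPM in interferon-low samples, and that of gbp1 was 77.2 to 423 CPM in interferon-high and 15 to 38.9 CPM in interferon-low samples. Neither overlapped, with differences of 3.27 ± 0.45 and 3.23 ± 0.48. For irgf3 (2.76 ± 0.54) the states overlapped, at 0.327 to 3.57 CPM in interferon-high and 0.148 to 0.580 CPM in interferon-low samples. Among ring-finger genes of the finTRIM and bloodthirsty families, many of whose members are induced by virus in fish, 25 of 79 were past the line, all higher (median 0.96). They comprised 22 of 63 finTRIM and 3 of 16 bloodthirsty genes. Of these, ftr07 had the largest difference (4.83 ± 0.57), at 2.65 to 12.7 CPM in interferon-high and 0.0595 to 0.668 CPM in interferon-low samples. It was followed by ftr11 (3.61 ± 0.61), ftr91 (3.23 ± 0.31), ftr12 (3.05 ± 0.56) and ftr10 (2.71 ± 0.60), the last at under 1 CPM in every sample. For ftr10 the interferon-high samples held 84 reads and the interferon-low samples 9 reads, and it was past the line in 9 of the 27 fits tried.

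Chemokines were past the line in 13 of 56 genes of the chemokine and receptor list, 12 higher and 1 lower, although the list median was only 0.08. The largest difference among them was that of ccl19a.2, a gene of the family that guides dendritic cells and T cells in mammals. Its level was 61.1 to 588 CPM in interferon-high samples (median 227) and 0.331 to 7.79 CPM in interferon-low samples (median 1.21). The log2 difference was 7.21 ± 0.94 with WT1, the highest low sample, and 8.49 without it. All 5 cxcl11 genes tested, which encode relatives of the mammalian ligands of CXCR3, were higher, by 3.15 to 5.71. The level of cxcl11.3 was 1.11 to 9.25 CPM in interferon-high and 0 to 0.238 CPM in interferon-low samples, with 16 reads over the low samples. For cxcl11.1 and cxcl11.3 no low sample held more than 5 reads, so both were tested because of their high samples. The share of 5 in 5 is thus partly set by the state itself. The lower gene of the list was a ccr9 gene, a receptor of gut-homing T cells in mammals. It was at 3.79 to 12.1 CPM in interferon-high and 13.6 to 26.2 CPM in interferon-low samples.

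Leukocyte markers were past the line in shares near that of all genes tested (2.02%) or not at all. Of 31 T and NK cell genes 1 was past the line (median -0.32), of 6 B cell genes 0 (-0.39), of 31 macrophage and dendritic cell genes 1 (-0.08) and of 13 neutrophil and mast cell genes 0 (-0.24). DESeq2 listed 1 T and NK cell gene as higher and 2 as lower, 2 macrophage and dendritic cell genes as higher and 2 as lower, and 0 genes of the B cell and of the neutrophil and mast cell lists. Past the line in edgeR were the death ligand tnfsf10 (TRAIL), at 16.7 to 62.6 CPM in interferon-high and 5.59 to 15.5 CPM in interferon-low samples, and batf3, a factor of dendritic cell development in mammals, at 1.58 to 4.23 CPM in interferon-high and 0.0828 to 0.364 CPM in interferon-low samples. Summed levels overlapped, with 124 to 269 CPM in interferon-high and 78.7 to 210 CPM in interferon-low samples for T and NK cells, and 662 to 1614 CPM in interferon-high and 570 to 1043 CPM in interferon-low samples for macrophages and dendritic cells. Other markers were looked up after their values had been seen. The T cell kinase lck was at 1.52 to 3.2 CPM in interferon-high and 2.65 to 4.58 CPM in interferon-low samples. The macrophage receptor marco had a log2 difference of -0.62 ± 0.40, whereas the 3 genes with the symbol mpeg1, which encodes a pore-forming protein of macrophages, had differences of 1.69 ± 1.28, 0.55 ± 0.57 and 0.22 ± 0.25. The states overlapped in all of these. The part of cell content in the interferon genes was not tested.

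All 12 inflammatory cytokines and enzymes had a log2 difference above 0 (median 1.0), and 3 were past the line. They were acod1, which makes itaconate (1.64 ± 0.32), il34, a growth factor of macrophages (1.22 ± 0.24), and il1b (1.32 ± 0.28). Of these il1b overlapped between the states, at 1.19 to 3.92 CPM in interferon-high and 0.518 to 1.4 CPM in interferon-low samples, and it was past the line in 14 of the 27 fits tried. Of 33 genes of apoptosis, pyroptosis and p53 targets, 25 had a difference above 0 (median 0.42), 7 had no overlap between the states, and 3 were past the line. Over all genes tested the median was -0.05, 2.02% were past the line and 1.9% had every interferon-high sample above every interferon-low sample. The death receptor fas was at 7.85 to 18.6 CPM in interferon-high and 1.91 to 6.49 CPM in interferon-low samples, and the caspase gene casp8 at 17.0 to 24.8 CPM in interferon-high and 9.49 to 13.0 CPM in interferon-low samples. The differences were 1.83 ± 0.34 for fas and 0.84 ± 0.14 for casp8, without overlap. Among 46 immediate-early and heat shock genes (median 0.15), fosl1 (1.89 ± 0.18), junb (1.94 ± 0.40) and the chaperone dnajb1b (1.19 ± 0.27) were higher. Of these dnajb1b was past the line in 12 of the 27 fits tried and junb in 19. The states overlapped for junb, at 42.3 to 166 CPM in interferon-high and 14.2 to 76.3 CPM in interferon-low samples. DESeq2 listed 5 inflammatory genes and 8 genes of the apoptosis list as higher, with 0 lower in both. Of the immediate-early and heat shock list it gave 10 as higher and 1 as lower.

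**Figure D4:**
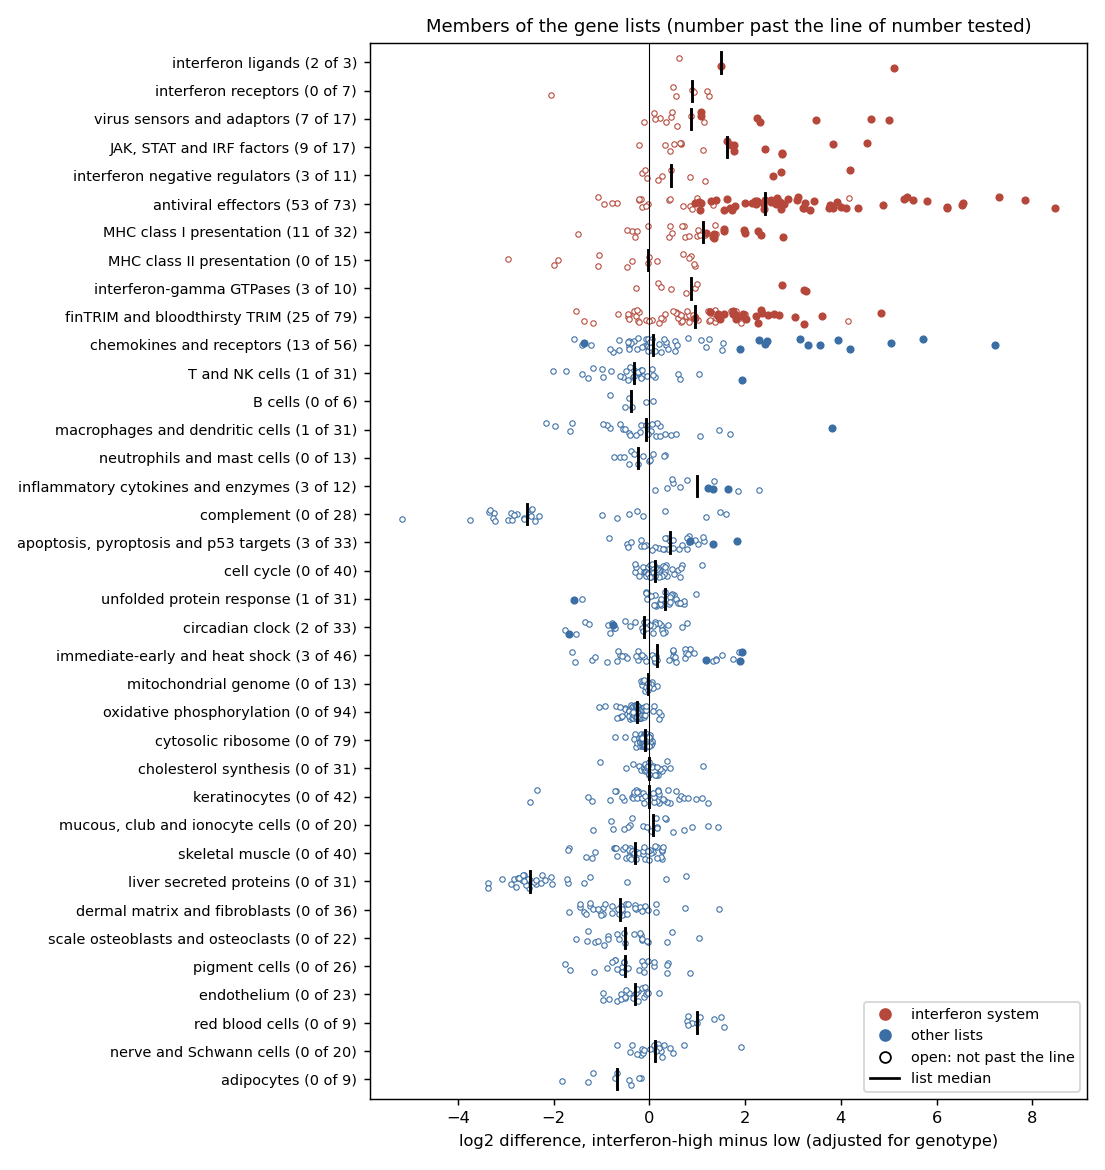
Log2 difference of interferon-high minus interferon-low samples, adjusted for genotype, for each member of 37 gene lists. Filled points are past the line, open points are not, and a bar marks the list median. The interferon lists (red) hold the filled points at the upper right, while the liver and complement lists lie near -2.5 with 0 members past the line.

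The lists of housekeeping functions and resident tissues held 0 genes past the line in edgeR. The line was passed by 0 of 94 oxidative phosphorylation genes (median -0.25), 0 of 79 ribosomal genes (-0.10), 0 of 40 cell cycle genes (0.11), 0 of 42 keratinocyte genes, 0 of 40 muscle genes (-0.30), 0 of 36 dermal genes (-0.62), 0 of 26 pigment cell genes (-0.51) and 0 of 9 red blood cell genes (1.0). With 2.02% of all genes past the line, lists of this size would hold few or 0, so 0 does not show that a list was level. Several lists leaned one way. Differences above 0 were held by 5 of 94 oxidative phosphorylation, 6 of 79 ribosomal, 4 of 36 dermal, 6 of 26 pigment cell and 11 of 40 muscle genes. They were held by 28 of 40 cell cycle, 21 of 42 keratinocyte and 9 of 9 red blood cell genes. Some of these leans depended on few samples. Without WT1 and WT5 the medians were 0.09 for oxidative phosphorylation, 0.02 for ribosomal and 0.21 for muscle genes. For dermal and pigment cell genes they stayed below 0, at -0.37 and -0.42. Without WT2 the red blood cell median was -0.13, and without HET3 the cell cycle median was -0.08. The liver and complement lists had medians of -2.50 and -2.55, again with 0 of 31 and 0 of 28 genes past the line. Without WT1 and WT5, the samples with most liver RNA, these medians were -0.62 and -0.66. DESeq2 listed 12 liver and 12 complement genes as lower, 2 complement genes as higher, 8 dermal genes as lower, 1 gene each of the pigment cell, adipocyte and scale osteoblast and osteoclast lists as lower, 1 keratinocyte gene as higher and 2 as lower, and 0 genes of the oxidative phosphorylation, ribosome, cell cycle, muscle and red blood cell lists. The summed complement level pointed the other way, at 954 to 3965 CPM in interferon-high and 674 to 2922 CPM in interferon-low samples.

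Among genes in no list, 214 were higher and 32 were lower. Most of the 19141 genes tested were in no list. Over all genes tested 1.83% were higher and 0.188% were lower, and the shares among genes in no list were not above these. The oxidation-resistance gene ncoa7a was at 7.85 to 25.6 CPM in interferon-high and 0.222 to 0.634 CPM in interferon-low samples (5.22 ± 0.38). The amino acid oxidase il4i1, which restrains T cells in mammals, was at 26.1 to 83.8 CPM in interferon-high and 0.815 to 9.23 CPM in interferon-low samples (3.81 ± 0.51). All 4 herc56 genes tested, of the HERC ubiquitin ligases to which the mammalian ISG15 ligase belongs, were higher by 3.72 to 4.0. As an example, herc56.4 was at 36.7 to 97.0 CPM in interferon-high and 2.44 to 15.3 CPM in interferon-low samples. Of the genes the rule named here without a known role, zgc:152670 had the largest difference (5.84 ± 0.75), at 40.2 to 269 CPM in interferon-high and 0.370 to 4.62 CPM in interferon-low samples. The si: genes si:ch211-276k2.2 (5.39 ± 0.48) and si:ch211-276k2.1 (5.03 ± 0.79) followed. The 12 higher genes named by the rule here, taken only where the states did not overlap, ran from 3.72 to 5.84.

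Among the 36 lower genes, the rule named 12 of no list, taken only where the states did not overlap. They ran from -2.52 to -1.20. The gene soat2, which esterifies cholesterol in liver and gut of mammals and was named after its values were seen, was at 0 to 0.131 CPM in interferon-high samples, 3 of them at 0, and 0.119 to 19.9 CPM in interferon-low samples (median 0.574). WT5 alone held the 19.9 CPM, the states overlapped, and no fitted difference is given because the high samples held so few reads. The largest difference without overlap was that of cyp1a1, a detoxifying cytochrome induced through the aryl hydrocarbon receptor. It was at 1.34 to 5.29 CPM in interferon-high samples (median 3.66) and 7.95 to 39.1 CPM in interferon-low samples (median 22.1), a log2 difference of -2.52 ± 0.40. The gene tsc22d3 (GILZ), which glucocorticoids induce, was at 39.8 to 110 CPM in interferon-high and 158 to 279 CPM in interferon-low samples (-1.25 ± 0.22). The growth factor bmp4 was at 0.756 to 1.58 CPM in interferon-high and 1.95 to 4.74 CPM in interferon-low samples (-1.42 ± 0.23). Neither cyp1a1, tsc22d3 nor bmp4 overlapped between the states, and without WT1 and WT5 the difference was -1.70 for cyp1a1 and -1.05 for bmp4. The matrix protein ccn1, at 16.3 to 21.7 CPM in interferon-high and 22.0 to 87.1 CPM in interferon-low samples, was nearly level in the high samples and spread in the low ones. The line was passed by ccn1 in 17 of the 27 fits tried.

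Other lower genes without overlap were myzap (-2.29 ± 0.45), which encodes a junction protein, the chromatin protein gene hmgb3 (-1.99 ± 0.41), the small GTPase arl4d (-1.64 ± 0.32), the protease inhibitor spink2.1 (-1.60 ± 0.25), the kinase pdpk1 (-1.22 ± 0.27) and brd8 (-1.20 ± 0.25). Of the 27 fits tried, pdpk1 was past the line in 12, brd8 in 16, hmgb3 in 18, myzap in 21, arl4d in 23 and spink2.1 in 25. Of the stress and clock lists, the glutathione-degrading enzyme chac1 was at 94.5 to 408 CPM in interferon-high and 389 to 1560 CPM in interferon-low samples (-1.58 ± 0.35). It was past the line in 14 of the 27 fits tried. Its list, of the unfolded protein response, leaned the other way, with 25 of 31 genes above 0 (median 0.33) and only chac1 past the line. The clock output factor nfil3-5 (-1.69 ± 0.33) and the clock repressor cry1 (-0.76 ± 0.17, past the line in 7 of the 27 fits tried) were lower with overlap. These 2 genes made up 6.06% of the 33 clock genes, and 0.188% of all 19141 genes tested were lower. The other 31 clock genes were not past the line in edgeR. DESeq2 listed 5 clock genes as lower and 0 as higher. The lower calls depended on the samples. With WT1 and WT5 left out, 0 of the 15 lower genes named by the rule were past the line, against 47 of the 59 higher ones. All 15 kept their sign in that fit of 11 samples, with a median log2 difference of -1.37, against -1.58 with every sample. They were picked as lower in these same samples, so a kept sign is largely built in and is no independent support. With the liver list mean in the fit, 2 of the 15 and 40 of the 59 were past the line, and without scaling 6 of the 15 and 49 of the 59.

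**Figure D5:**
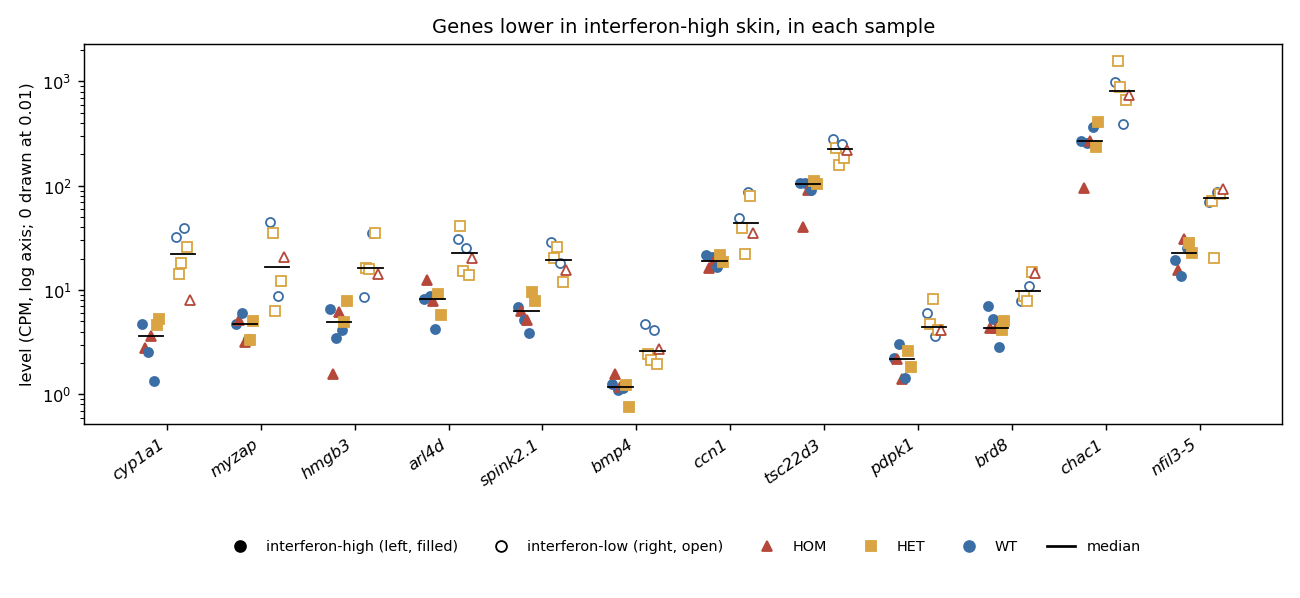
Level of 12 genes that were lower in interferon-high skin, in each sample as CPM on a log axis, interferon-high on the left of each gene (filled) and interferon-low on the right (open), with a bar at the median. The states stand apart in the first 10 genes from the left, which were named only where the states did not overlap. In chac1 and nfil3-5 they overlap.

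Within a state the samples were not alike. Of the 113 higher genes of the interferon lists, the highest interferon-high sample was WT4 in 36, HET4 in 24, HOM1 in 20, HET3 in 15, WT2 in 9, WT3 in 7 and HOM2 in 2. The lowest high sample was WT2 in 35 and HOM2 in 34. Among the interferon-low samples the highest was WT1 in 51 and HET2 in 41, and the lowest was WT5 in 59. Mean levels of the effector list (log2 CPM centred per gene) ran from 0.65 in HOM2 to 1.37 in HET4 among the high samples, and from -1.71 in WT5 to -0.73 in WT1 among the low samples. The lowest high sample and the highest low sample stood apart over the list.

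Whether genotype shows once the state is in the fit is a question that the choice of samples did not use. By edgeR, HOM against WT had 0 of 19141 genes (0%) past an adjusted p of 0.05 (smallest adjusted p = 1), with 473 genes at an unadjusted p under 0.05, 173 higher and 300 lower in HOM, and DESeq2 called 9. HET against WT had 0 (0%, smallest adjusted p = 0.9695 in edgeR), with 925 genes at an unadjusted p under 0.05, and DESeq2 called 18. The difference between the states was itself compared between genotypes by an interaction term. In HET against WT 0 genes passed in edgeR (smallest adjusted p = 0.4771), 961 had an unadjusted p under 0.05, and DESeq2 called 173. Without WT1, where WT5 with its liver transcripts is the one interferon-low WT sample left, edgeR called 16. These included the complement gene c1r (11.7) and tdo2b (7.71) and asgr1a (5.71), whose products are known from liver. Also among them were acta2 (9.53), oxct1b (6.38), diabloa (5.97) and myl9 (5.86). With every sample, the 5 genes of smallest p were c1r (10.83 ± 1.64), diabloa (5.16 ± 0.78), si:dkey-10f21.16 (11.35 ± 1.52), slc25a48 (5.44 ± 0.95) and c1s.2 (8.0 ± 1.4). The part of liver RNA in this term was not tested. In HOM against WT 0 genes passed in edgeR (smallest adjusted p = 0.9999), 379 had an unadjusted p under 0.05, and DESeq2 called 4, namely c3a.4, oaz1, spink2.2 and si:ch73-359m17.2. With 1 interferon-low HOM sample, that sample was assumed to vary like the others. The log2 differences of rsad2 on the log2(CPM + 0.5) scale were 5.98 in HOM, 6.33 in HET and 6.11 in WT, and those of irf7 were 4.93 in HOM, 4.76 in HET and 4.51 in WT. Samples were sorted by interferon genes, with rsad2 as the marker. A wide difference of such genes within every genotype is therefore largely built in, and these values do not test the part of genotype.

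The tert transcript was at 7.09 to 19.1 CPM in interferon-high samples (median 14.5) and 11.7 to 40.5 CPM in interferon-low samples (median 20.1), which overlapped, and its difference of -0.64 ± 0.24 was not past the line. With the state in the fit, the log2 difference was 1.06 ± 0.30 for HOM against WT (edgeR adjusted p = 1) and 0.93 ± 0.28 for HET against WT (adjusted p = 0.97). Transcripts of a nonsense allele can persist, so these levels are no check of genotype.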

How the data were processed

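Poly(A) RNA libraries from skin (Illumina TruSeq RNA v2, which does not mark strand) were sequenced in 13 samples of 3 genotypes. The authors deposited read counts per gene, as whole numbers for 32105 genes, and per the submitters' processing notes bcl2fastq 1.8.4, STAR 2.4.1d, featureCounts 1.4.6-p4 and the build GRCz10 were used. A second deposited table, of values labelled RPKM, was not used here, since the counts carry the depth of each library. Gene IDs were paired with symbols, set in lower case, from a table of gene names (81.8% matched), and paralogues can share a symbol. No coordinates or sequences are given, and some members of the lists are not reported here.

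Samples were grouped by the interferon state stated in the report, and genotype came from the labels. The members and gene lists were chosen with earlier results of these data known. Counts were fitted with edgeR 4.0.16 in R 4.3.3 (filterByExpr, 19141 genes; TMM factors 0.769 to 1.43; robust quasi-likelihood; genotype and state over all 13 samples), with Benjamini-Hochberg adjustment. The SE is the size of the log2 difference over the square root of F. Levels are CPM of scaled libraries. Genotype tests used the same fit with state, and the interaction used a fit with a term of state by genotype added, both two-sided. The script was tested on simulated counts.

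The rule for named genes took rsad2 and tert, every interferon ligand and receptor tested, the 5 largest differences past the line in each other interferon list, the 3 smallest p in each further list, and 12 higher and 12 lower genes of no list with a symbol, a mean of at least 1 CPM in a state and no overlap. Other genes named, among them isg15, uba7, mxc, cmpk2, ifih1, stat2, irf9 and markers, were chosen after their values were seen. Alternatives were DESeq2 1.42.0, DESeq2 size factors or no scaling, no filter or 1 CPM in 3 samples, no robust moderation, an adjusted p under 0.1, 1 surrogate variable (sva 3.50.0), the mean of the muscle, liver or mitochondrial list as covariate, no genotype term, the rsad2 level in place of the split, and leaving out each sample or WT1 with WT5.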

Additional observations from a re-analysis of the deposited data

Results flagged for a closer look

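Among 150 groups of named genes and states, 9 held a sample far from the others of its state, and chance gives about 1 in 20 groups. In interferon-low skin, HET2 was far above the rest for gbp1 (38.9 CPM, next 18.5), junb (76.3 CPM, next 19) and herc56.4 (15.3 CPM, next 4.86), and far below it for nfil3-5 (20.2 CPM, next 70.6). WT1 was far above the other interferon-low samples for tnfsf10 (15.5 CPM, next 7.70) and si:dkey-196h17.9 (0.574 CPM, next 0.188). In interferon-high skin, HOM1 was far below the rest for chac1 (94.5 CPM) and tsc22d3 (39.8 CPM, next 90.5), and HET4 was far above it for cry1 (12.2 CPM, next 7.26).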

How the results depend on the processing

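The count of 386 genes past the line was 1089 with DESeq2 (643 higher, 446 lower), 586 at an adjusted p under 0.1 (123 lower), 585 with the muscle mean in the fit (110 lower), 243 without WT1 and WT5 (6 lower) and 190 with the liver mean in the fit (184 higher, 6 lower). The 36 lower genes were 11 without scaling, 55 with 1 surrogate variable, 89 without the genotype term and 64 with the rsad2 level in place of the split. Leaving out each sample gave 240 to 411 genes in all, 231 to 384 higher and 9 to 45 lower, with the fewest without HOM3 (240), and 244 of the 386 genes stayed past the line without HET4. Members of the interferon lists past the line were 113, 84 to 117 without each sample and 68 with the liver mean, and the median over these lists was 1.15, and 1.01 to 1.48 without each sample. Members of other lists past the line were 27, 15 without WT1 and WT5, 41 with the muscle mean, 13 with the liver mean and 13 to 30 without each sample. Of the 386 genes, 183 were shared with the liver fit and 221 with the fit without WT1 and WT5. The cause of these shifts was not tested. HOM against WT called 0 genes in edgeR, 9 with DESeq2 and 1 with the liver mean (si:dkey-10f21.16), HET against WT 0 and 18 with DESeq2. The interaction of state with HET called 0, 173 with DESeq2 and 0 to 16 without each sample (16 without WT1), and that with HOM 0 and 4 with DESeq2. The Fisher-Freeman-Halton exact p was 0.61 to 1 without each sample. Values of named genes were compared for the fits with other scaling, a covariate, a surrogate variable or samples left out. Of these, 1644 stayed within the spread of the main value, 16 moved and 0 changed sign. A change of sign was counted only for genes past the line. Those genes were picked by their difference in the same samples, so a kept sign is largely built in. The all-gene median moved by less than 0.1 under no scaling (0.03, against -0.05). No paired analysis was possible because the labels give no replicate numbers shared between the states. Low counts limit ifng1r, ifit15 and ifi44a7, which held at most 5 reads over the interferon-low samples, and intervals on single reads cover counting error only. Such genes were tested because of their interferon-high samples, which can raise the share of a list past the line. The same holds for others, among them cxcl11.1, cxcl11.3, ftr10 and batf3, where no interferon-low sample held more than 9 reads.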
